A study of Mus musculus with 7 samples.

Results

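The 10 genes described here make, load or switch on MHC class I molecules in mouse CD4 T cells. They are the light chain gene B2m, the classical heavy chain genes H2-K1 and H2-D1, the peptide transporter genes Tap1 and Tap2, the loading chaperone gene Tapbp, the immunoproteasome subunit genes Psmb8, Psmb9 and Psmb10, and the transactivator gene Nlrc5. They were taken by gene symbol from a table of 15588 genes, and all 10 were present, each with an Entrez gene number. The cells had been sorted as tumour-infiltrating CD4 T cells from mice carrying hepatocellular carcinoma transplanted into the liver, and RNA sequencing was done on 2 libraries labelled day 0 and 5 labelled day 7 after the model was set up. No treatment or engineered allele is named for either group. The sources used here do not give the mouse strain, and with it the class I haplotype, nor the age of the animals, any pooling or the tissue that stood for tumour on day 0. The labels do not tie each library to an animal of its own, and p-values then measure only the spread between these libraries, which may be technical.

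MHC class I molecules sit on nearly all nucleated cells and hold short peptides cut from the cell's own proteins, where CD8 T cells and NK cells can inspect them. Proteasomes cut the proteins, the TAP transporter carries the peptides into the endoplasmic reticulum, and tapasin and its partners hold an empty heavy chain and B2m ready until a peptide fits. Interferon gamma, which CD4 T cells of the T helper 1 type make themselves, switches on this machinery, in part through IRF1, replaces 3 catalytic proteasome subunits by the immunoproteasome forms, and raises NLRC5, which acts at class I promoters together with the RFX factors, CREB/ATF factors and NF-Y.

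Total gene counts ran from 21910818 to 28333855 a library, and between 11698 and 12521 genes had a count. Library names are the final digits of the column headings, 2 and 3 for day 0 and 1, 2, 3, 5 and 6 for day 7, which differ from the numbering of the sample titles. Levels are CPM, counts brought to a common library size with TMM factors. Means carry the SD of the 2 or 5 libraries of a day. A positive log2 change means a higher level on day 7 and carries its standard error (SE), and adjusted p-values are Benjamini-Hochberg values of edgeR's quasi-likelihood test over the 12929 genes that passed the filter on low counts. All 10 members passed it. Markers of the sorted cells were high throughout: Cd4 stood at 386.8 and 402.7 CPM on day 0 and at 474.6 to 935.6 CPM on day 7, and 8 T cell genes summed to between 3601 and 4668 CPM. Day 7 libraries 5 and 6 stood apart, with 204.5 and 175.2 CPM of the CD8 coreceptor genes Cd8a and Cd8b1 summed, against at most 18.2 CPM in the other day 7 libraries and at most 3.66 CPM on day 0. The fit was therefore also run without them, a setting chosen after the data had been seen, and its values are given beside a number of results.

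The promoter sequences come first, because the class I chain genes share an arrangement of letters there that none of the 5 other windows at hand holds. RefSeq windows on GRCm38.p6, from 250 bases before to 50 bases after the transcription start, were at hand for 8 of the 10 members, Tap2 and Nlrc5 not among them. A match to TGACG, the core of the X2 box that CREB/ATF factors read, followed after 20 bases by ATTGG, the reversed Y box that NF-Y reads, was present in B2m, H2-K1 and H2-D1. Of 27025 promoter windows of the same length, 26 (0.0962%) held this spaced pair on either strand. In B2m it lay at bases −78 to −49 from the start, in H2-K1 at −41 to −12 and in H2-D1 at −101 to −72. The 3 windows below are set so that the pair begins at the same base, and each reads in the direction of its gene. Capitals mark the spaced pair and, upstream of it, a match to an interferon response core, which is the long form in B2m (the letters shown, with the 2 middle bases free) and the short form GAANNGAAA on the opposite strand in H2-K1 and H2-D1.
B2m, chr2:122147544-122147663, plus strand: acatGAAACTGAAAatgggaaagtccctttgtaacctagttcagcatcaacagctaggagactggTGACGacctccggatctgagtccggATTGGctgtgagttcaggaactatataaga
H2-K1, chr17:34000334-34000453, minus strand: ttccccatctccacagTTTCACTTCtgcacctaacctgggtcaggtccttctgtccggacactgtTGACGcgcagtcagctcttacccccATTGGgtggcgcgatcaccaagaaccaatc
H2-D1, chr17:35262928-35263047, plus strand: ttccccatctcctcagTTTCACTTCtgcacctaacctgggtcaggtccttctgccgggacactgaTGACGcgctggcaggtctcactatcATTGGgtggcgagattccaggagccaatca
The H2-K1 and H2-D1 windows had the same base at 96 of 120 positions (80.0%), whereas B2m matched H2-K1 at 48 (40%) and H2-D1 at 46 (38.3%).

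Tap1, a transporter subunit, and Psmb9, an immunoproteasome subunit, lie head to head, with starts 226 bases apart, so their windows share 275 of 300 bases. This stretch is shown because both genes are read from it, in opposite directions. It is given in the direction of Tap1, with capitals on a Y box (CCAAT), a GC box (GGGCGG, here on the opposite strand as CCGCCC) and an X2 core (TGACG).
Tap1 and Psmb9, chr17:34187306-34187580, plus strand: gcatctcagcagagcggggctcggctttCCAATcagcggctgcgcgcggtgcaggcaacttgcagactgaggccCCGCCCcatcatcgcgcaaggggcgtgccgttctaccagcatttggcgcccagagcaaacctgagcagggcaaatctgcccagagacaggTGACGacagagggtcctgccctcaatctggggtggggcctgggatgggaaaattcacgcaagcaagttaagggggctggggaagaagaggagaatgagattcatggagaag
Psmb8 held the only match to TTCNNNGAA, the palindrome of the gamma-activated site, among the 8 windows, marked here in capitals.
Psmb8, chr17:34198073-34198131, plus strand: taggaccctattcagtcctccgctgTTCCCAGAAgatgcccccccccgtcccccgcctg
Single short motifs were common in promoters at large when both strands were searched. The spaced pair itself counts as a match to both of its cores. The X2 core TGACG was in 21.0% of all windows and in 5 of the 8 members, CCAAT in 37.9% and in 6, GGGCGG in 35.9% and in 3, GAANNGAAA in 7.56% and in 2, TTCNNNGAA in 8.47% and in 1, and the long interferon core in 3.49% and in 1. Tapbp held Y and GC boxes, and none of the searched letters occurred in the Psmb10 window. In the RefSeq gene order Psmb9, Tap1, Psmb8 and Tap2 follow each other with no other gene between them, with H2-DMb1 and H2-Ob of the class II region on the outer sides.

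**Figure D1:**
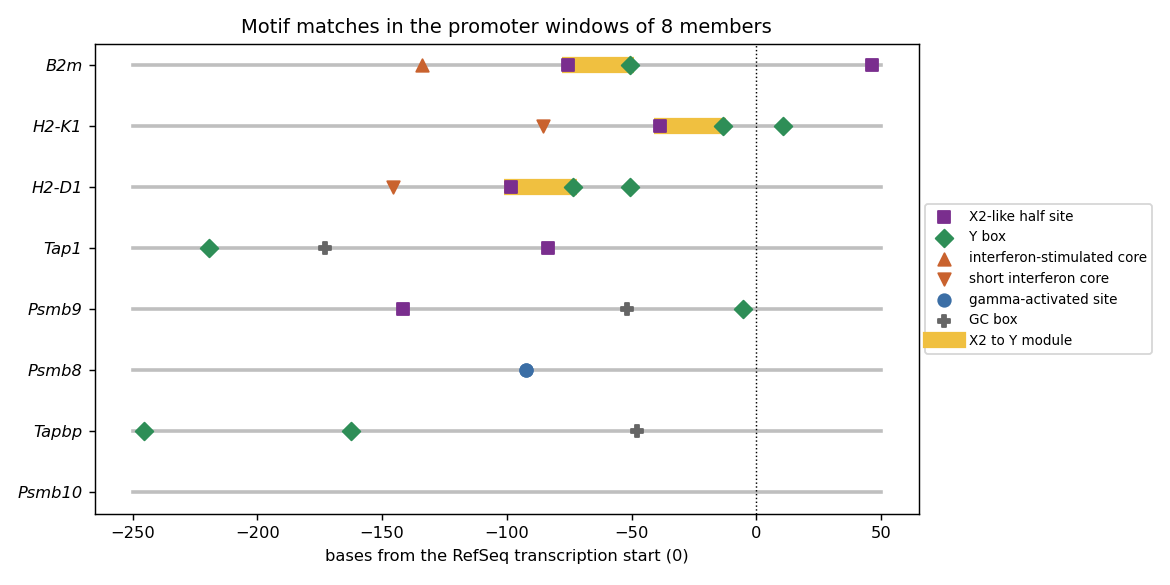
Positions of motif matches in the RefSeq promoter windows of 8 members, with bases from the transcription start on the x axis and 1 gene a row (dotted line, start; yellow bar, the spaced X2 and Y pair). The yellow bar is present in B2m, H2-K1 and H2-D1, Tap1 and Psmb9 show the same 3 matches mirrored, and Psmb10 has none.

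No member passed the adjusted threshold of 0.05 between day 7 and day 0, in a comparison that called 199 of 12929 genes (1.54%). The estimates for B2m, H2-K1 and H2-D1 were negative and those of the other members positive, and the days overlapped for 8 of the 10. The largest estimate was that of Tap1, at 1.51 times its day 0 level, which missed the threshold by a small margin (adjusted p = 0.0503). At an unadjusted p under 0.05, 2 members were higher, Tap1 and Tapbp, where 6.29% of all genes were, and 1 was lower, H2-K1, where 3.78% of all genes were. The day 0 and day 7 libraries did not overlap for 2 members, Tap1 and H2-K1, against 15.3% of all genes. Across the 10 members 7 estimates were positive and 3 negative, with a median log2 change of 0.12, against 0.04 over all genes tested. Without day 7 library 5 the count over all genes was 127.

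Among the members, the call for Tap1 was the one on which other fits differed. DESeq2 called it (adjusted p = 0.00112) and no other member, in a fit that called 6.39% of all genes. Limma-voom called no member with 1.14% of genes called, and limma-voom with sample weights called Tap1 (adjusted p = 0.0482) with 1.4% called. Over 18 other settings the log2 change of Tap1 lay between 0.47 and 0.74, and its adjusted p between 0.00112 and 0.515.

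**Figure D2:**
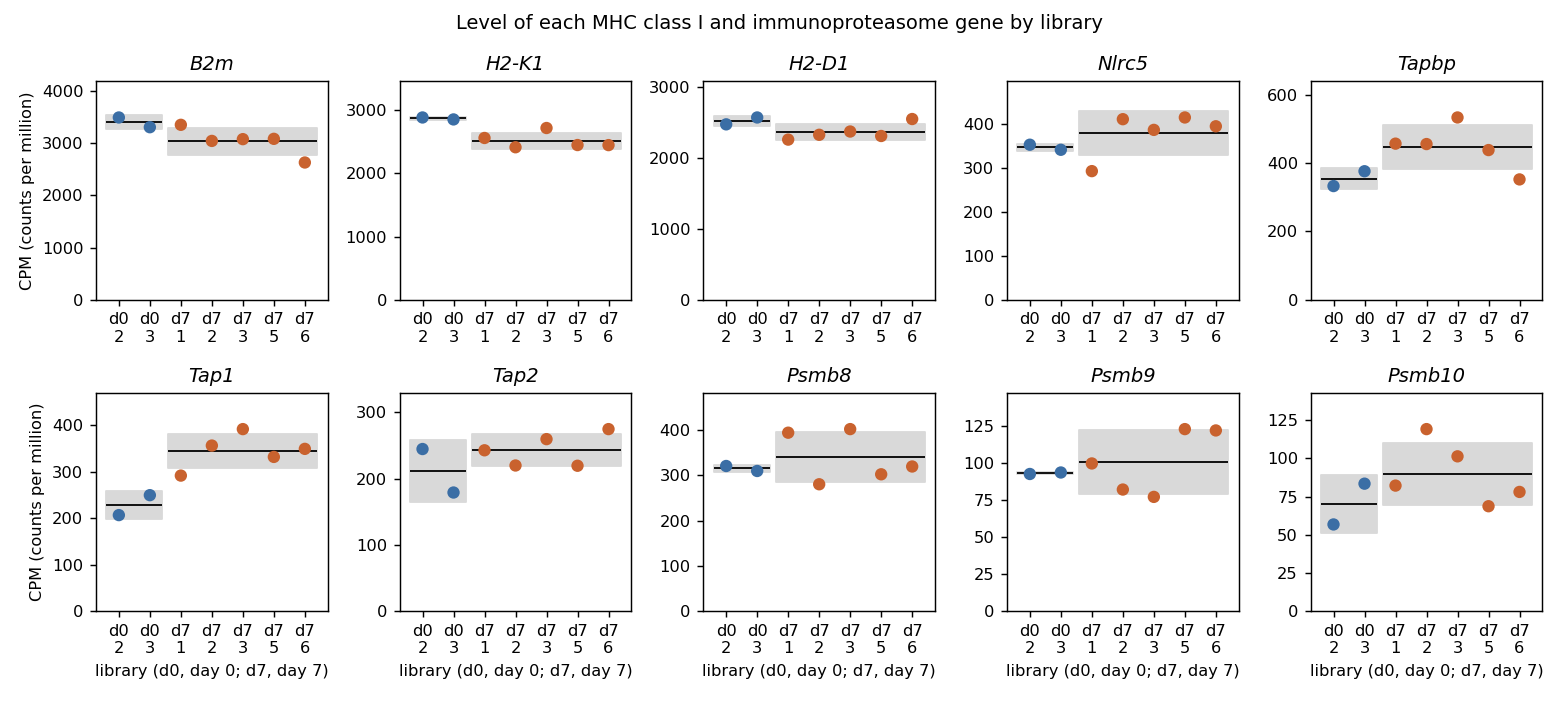
CPM of the 10 members in each library (points; black line, mean of the day; grey band, mean ± SD; all y axes start at 0), with the 2 day 0 libraries on the left of each panel. The day 7 points of Tap1 lie from 291.9 to 391.9 CPM, above both day 0 points, those of H2-K1 lie below both day 0 points, and the days overlap in the other 8 panels.

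The class I chains had the highest levels of the members and varied least. B2m, the invariant light chain of all class I molecules, had 3496 and 3309 CPM on day 0 (libraries 2 and 3), and on day 7 it had 3355, 3046, 3080, 3086 and 2632 CPM (libraries 1, 2, 3, 5 and 6, an order kept below). The day 7 libraries sat at or below the lower day 0 library apart from library 1, and library 6 was the lowest of all. The means were 3402 ± 132.7 and 3040 ± 259.3 CPM (SD, n = 2 and 5), a log2 change of −0.16 ± 0.09 (SE, edgeR adjusted p = 0.58) with a 95% interval from −0.34 to 0.02.

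H2-K1, a classical heavy chain that presents peptides to CD8 T cells, had 2887 and 2856 CPM on day 0 and 2562, 2415, 2720, 2450 and 2449 CPM on day 7. All 5 day 7 libraries were below both day 0 libraries, by a small margin in library 3. The log2 change was −0.19 ± 0.08 (SE, interval −0.36 to −0.02), with an unadjusted p of 0.0329 and an edgeR adjusted p of 0.411. H2-D1, the other classical heavy chain, had 2470 and 2567 CPM on day 0 and 2255, 2323, 2369, 2306 and 2545 CPM on day 7. Its days overlapped through library 6, and the log2 change was −0.09 ± 0.09 (SE, edgeR adjusted p = 0.816). For neither heavy chain did the interval reach a halving or a doubling, since both lay between −0.36 and 0.08.

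Heavy and light chain form 1 molecule, so their ratio within a library was also compared. On the log2 scale the H2-K1 to B2m ratio was −0.24 ± 0.05 on day 0 and −0.27 ± 0.12 on day 7 (SD), a difference of −0.02 (exact two-sided permutation p = 0.762, adjusted over 5 ratios 0.81). The H2-D1 to B2m ratio was −0.43 ± 0.1 and −0.36 ± 0.19, a difference of 0.07 (exact permutation p = 0.714, adjusted 0.81). With 2 against 5 libraries this exact test cannot go below 0.0476. Both differences were smaller than the spread between libraries of a day, and both change sign when single libraries are left out.

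Counts of class I heavy chains carry an uncertainty that those of the other members do not. The longest reading frames of H2-K1 and H2-D1 in GENCODE M21 were 92.0% identical over 1077 aligned bases, and H2-Q4, a non-classical relative, matched them at 91.2% and 90.6%. How the counting dealt with reads that match several of these genes is not given in the sources used here, nor is the use of strand, and the strain of the mice may carry other alleles than the reference.

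Measured per length of transcript, the members formed a steep order that was the same on both days. Day 0 levels in CPM per kilobase of the longest protein-coding GENCODE M21 transcript were 3956 ± 154.4 for B2m, 1774 ± 13.6 for H2-K1 and 1198 ± 32.7 for H2-D1 (SD, n = 2). Psmb8 followed at 193.5 ± 4.8, Tapbp at 122.5 ± 10.6 and Tap1 at 77.3 ± 10.3 CPM per kilobase. Below them came Psmb9 at 68.9 ± 0.53, Tap2 at 61.5 ± 13.5, Psmb10 at 53.5 ± 14.4 and Nlrc5 at 45.7 ± 1.08 CPM per kilobase. The library ranges of neighbours in this order did not overlap on day 0 down to Tap1 and Psmb9, while Psmb9 and Tap2, Tap2 and Psmb10, and Psmb10 and Nlrc5 overlapped. On day 7 the overlaps also took in Psmb8 with Tapbp and Tapbp with Tap1, and Tap1 reached 116.6 ± 12.4 against 74.6 ± 15.9 CPM per kilobase for Psmb9, with ranges apart.

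The members also differed in how much they varied from library to library. Over all 7 libraries H2-D1 had a coefficient of variation of 5.1%, H2-K1 of 7.65% and B2m of 8.95%. Among 7099 genes with a mean of at least 20 CPM the median coefficient was 24.1%, and only 0.479%, 2.13% and 4.18% of genes varied less than these 3. Nlrc5 followed at 11.9%, Tap2 at 13.4%, Psmb8 at 14.0%, Tapbp at 16.8% and Psmb9 at 18.2%. Tap1 (20.9%) and Psmb10 (24.5%) were near the median. Abundant genes have less counting error, so these places are a description and not a test.

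In peptide transport and loading, Tap1 had the highest estimate of all members, while Tapbp and Tap2 stayed further from the threshold. Tap1, which pairs with TAP2 to pump peptides into the endoplasmic reticulum, had 206.9 and 249.8 CPM on day 0 and 291.9, 356.5, 391.9, 332.1 and 349.4 CPM on day 7. Every day 7 library was above both day 0 libraries, library 1 least so. The means were 228.4 ± 30.3 and 344.4 ± 36.5 CPM (SD), and the log2 change was 0.59 ± 0.15 (SE, interval 0.27 to 0.91), a fold of 1.51 with an interval from 1.21 to 1.88. The unadjusted p was 0.00079 and the edgeR adjusted p 0.0503. Leaving out day 7 library 1 brought the adjusted p to 0.0408, and leaving out day 0 library 2 brought it to 0.515 at a log2 change of 0.47, with a single day 0 library then assumed to vary like the rest. Without day 7 libraries 5 and 6 the log2 change was 0.59 (adjusted p = 0.0656).

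Tap2, the partner subunit, did not follow it beyond the spread. Its levels were 244.4 and 178.9 CPM on day 0 and 242.5, 219.6, 259.3, 219.2 and 274.4 CPM on day 7. The day 0 libraries lay far apart, and 3 of the 5 day 7 libraries fell between them. This gave a log2 change of 0.20 ± 0.17 (SE, interval −0.15 to 0.54, edgeR adjusted p = 0.772). Leaving out day 0 library 3 gave 0.00 and leaving out day 0 library 2 gave 0.45, so the estimate rests on which day 0 library is used. The log2 ratio of Tap1 to Tap2 was −0.24 and 0.48 on day 0 and 0.27, 0.70, 0.60, 0.60 and 0.35 on day 7. These ratios overlap between the days. They, and those of Tap1 to Psmb9 and Psmb8, were chosen after the levels had been seen and carry no test.

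Tapbp encodes tapasin, which bridges the transporter and the empty class I molecule. It had 333.2 and 376.7 CPM on day 0 and 457.6, 456.4, 534.4, 438.8 and 352.7 CPM on day 7. All day 7 libraries but library 6 were above both day 0 libraries. On the log2 scale the difference was 0.34 ± 0.15 (SE, interval 0.03 to 0.64), with an unadjusted p of 0.0325 and an edgeR adjusted p of 0.41.

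The rest of the loading machinery was followed through 13 genes, none of which passed the adjusted threshold, with a median log2 change of 0.14. Of these 13 genes, 2 were higher at an unadjusted p under 0.05, where 6.29% of all genes were. Erap1, the aminopeptidase that trims peptides in the endoplasmic reticulum, had 197.0 ± 28.6 CPM on day 0 and 263.6 ± 46.8 CPM on day 7 (SD), a log2 change of 0.42 ± 0.18 (SE, unadjusted p = 0.0268, edgeR adjusted p = 0.373). Its values in day 7 libraries 5 and 6, 215.5 and 217.9 CPM, were at the level of the higher day 0 library, 217.2 CPM, and those of libraries 1, 2 and 3 were 310.9, 264.0 and 309.8 CPM. The general chaperones of the loading complex stood close together on both days. Calr, calreticulin, had 777.1 ± 84.5 and 780.0 ± 44.5 CPM, Canx, calnexin, 466.9 ± 24.4 and 466.4 ± 21.7 CPM, and Pdia3, the disulfide isomerase bound to tapasin, 700.6 ± 62.5 and 780.3 ± 54.3 CPM (SD). Tapbpl, the tapasin-related editor, had 84.2 ± 16.2 and 84.4 ± 17.9 CPM. The log2 intervals reached from −0.23 to 0.24 for Calr and from −0.26 to 0.25 for Canx, and from −0.52 to 0.53 for the less abundant Tapbpl.

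In the cytosol, 8 peptidases that shorten or destroy proteasome products were tested. None was called by edgeR, and the median log2 change was 0.43. At an unadjusted p under 0.05, 3 of the 8 were higher, against 6.29% of all genes. Lap3, an interferon-induced leucine aminopeptidase, went from 16.6 ± 4.52 to 24.2 ± 10.08 CPM (SD, log2 change 0.55 ± 0.53, SE, edgeR adjusted p = 0.844). Blmh, bleomycin hydrolase, picked after its values were seen, had 24.5 and 52.6 CPM on day 0 and between 65.8 and 127.7 CPM on day 7. Its days did not overlap, and its log2 change of 1.18 ± 0.33 (SE) had an edgeR adjusted p of 0.0783. DESeq2 called it (adjusted p = 0.00564), as did edgeR without the filter on low counts (0.00719). The estimate rested on which day 0 library was used: it was 1.84 without library 3 (edgeR adjusted p = 0.00667) and 0.73 without library 2 (0.615).

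**Figure D3:**
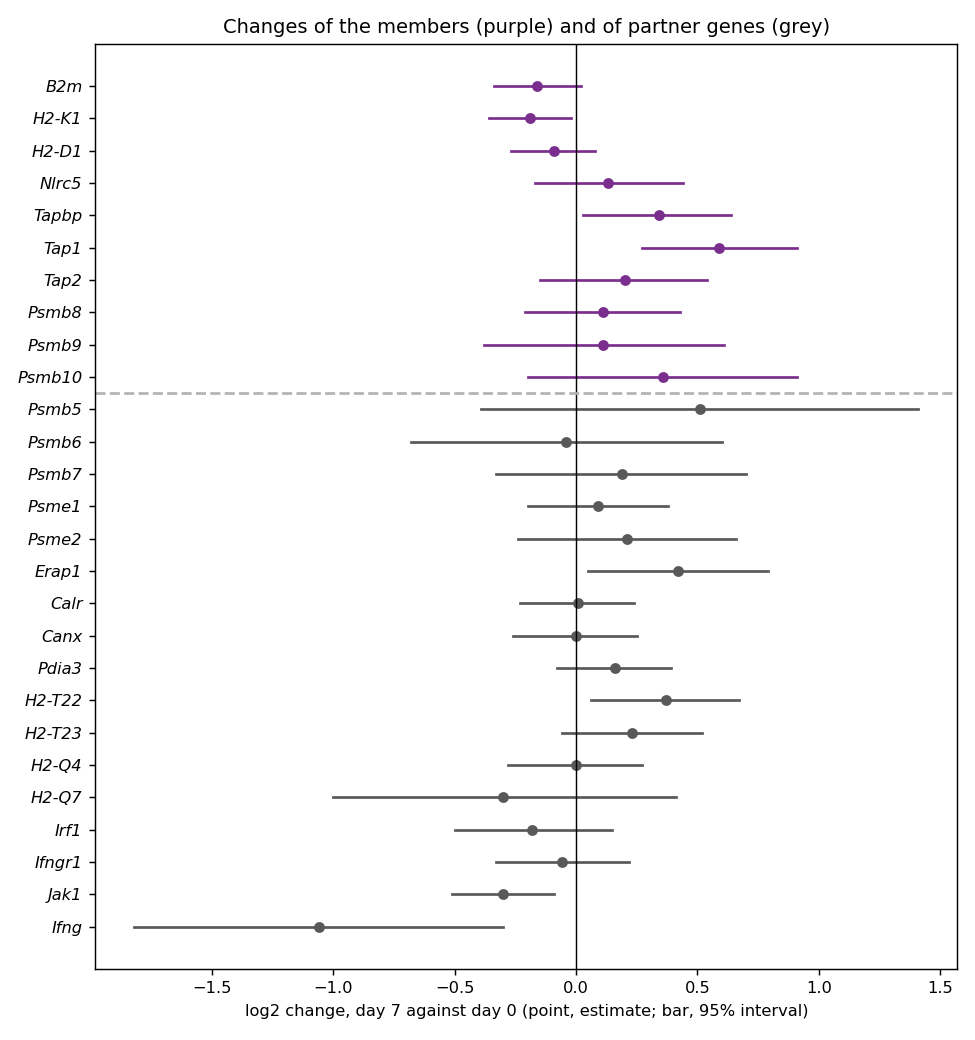
Log2 change of the 10 members (purple) and of 17 partner genes (grey), day 7 against day 0, on the x axis (point, estimate; bar, 95% interval; vertical line, no change). Among the members, the intervals of Tap1 and Tapbp lie above 0 and that of H2-K1 lies below 0. Among the partner genes, those of Erap1 and H2-T22 lie above 0 and those of Jak1 and Ifng below 0. The lowest estimate of the plot is that of Ifng at −1.06.

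None of the 3 immunoproteasome subunits passed the test, and the days overlapped for each. Psmb8 encodes LMP7, the immune form of the chymotrypsin-like subunit, and had 320.6 and 309.6 CPM on day 0 and 394.1, 280.3, 402.0, 302.3 and 319.5 CPM on day 7. The day 7 libraries lay on both sides of day 0, with libraries 1 and 3 high. The estimated log2 change was 0.11 ± 0.16 (SE, interval −0.21 to 0.43, edgeR adjusted p = 0.958). Psmb9, which encodes LMP2, had 92.7 and 93.7 CPM on day 0 and 99.8, 82.2, 77.2, 123.0 and 122.1 CPM on day 7. The high libraries here were 5 and 6, and libraries 2 and 3 were below day 0. Its log2 change was 0.11 ± 0.24 (SE, edgeR adjusted p = 0.998), and it was −0.12 without day 7 libraries 5 and 6.

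Psmb10, which encodes MECL-1, the immune form of the trypsin-like subunit, had 56.8 and 83.4 CPM on day 0 and 82.2, 119.1, 101.3, 68.7 and 78.0 CPM on day 7. Libraries 2 and 3 were above both day 0 libraries, and the other 3 lay between them. Its log2 change was 0.36 ± 0.27 (SE, interval −0.20 to 0.91, edgeR adjusted p = 0.701). The estimate ran from 0.11 without day 0 library 2 to 0.67 without day 0 library 3, and was 0.51 without day 7 libraries 5 and 6. This was the least deeply counted member, with 3702 counts over the day 0 group.

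The same libraries were therefore not high for all 3 subunits, which are built into 1 particle. Libraries 1 and 3 were high for Psmb8, 5 and 6 for Psmb9, and 2 and 3 for Psmb10. Against its neighbour Psmb9, Tap1 had log2 ratios of 1.16 and 1.41 on day 0 and 1.55, 2.12, 2.34, 1.43 and 1.52 on day 7. All 5 day 7 ratios were above both day 0 ratios, library 5 by the least, and these genes share most of their promoter window. Against Psmb8, the log2 ratios of Tap1 were −0.63 and −0.31 on day 0 and −0.43, 0.35, −0.04, 0.14 and 0.13 on day 7, and library 1 fell between the day 0 values.

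The question whether cells exchange constitutive for immune subunits can be put to the ratio of each pair within a library. The constitutive counterparts were Psmb5, the partner of Psmb8, with 23.99 ± 5.25 CPM on day 0 and 34.1 ± 11.9 CPM on day 7, Psmb6, the partner of Psmb9, with 62.7 ± 0.257 and 61.1 ± 19.1 CPM, and Psmb7, the partner of Psmb10, with 84.2 ± 27.6 and 95.7 ± 12.8 CPM (SD). None of these 3 genes passed the test, nor had any an unadjusted p under 0.05. Per kilobase on day 0, Psmb8 at 193.5 stood far above Psmb5 at 26.7, whereas Psmb9 at 68.9 and Psmb6 at 78.5, and Psmb10 at 53.5 and Psmb7 at 72.6 CPM per kilobase, were of like size.

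The log2 ratio of Psmb8 to Psmb5 counts was 3.53 and 3.93 on day 0 and 3.29, 3.37, 4.6, 2.82 and 2.86 on day 7. Library 3 was the highest and libraries 5 and 6 were the lowest. The means differed by −0.34 (exact permutation p = 0.571, adjusted over 5 ratios 0.81), and by 0.02 without libraries 5 and 6. For Psmb9 to Psmb6 the ratios were 0.56 and 0.58 on day 0 and 0.56, 0.72, 0.34, 0.47 and 1.68 on day 7. Only library 6 stood apart, and the difference of 0.18 (exact permutation p = 0.81, adjusted 0.81) was −0.05 without it. For Psmb10 to Psmb7 they were −0.87 and 0.37 on day 0, as far apart as the lowest and highest day 7 values, −0.56 and 0.68. The difference there was 0.14 (exact permutation p = 0.762, adjusted 0.81), and 0.41 without day 7 libraries 5 and 6. The days overlapped for each of these 3 ratios. The smallest p this exact test can give, 0.0476, passes 0.05 after adjustment only if all 5 ratios reach it. The test could therefore not call a single ratio.

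**Figure D4:**
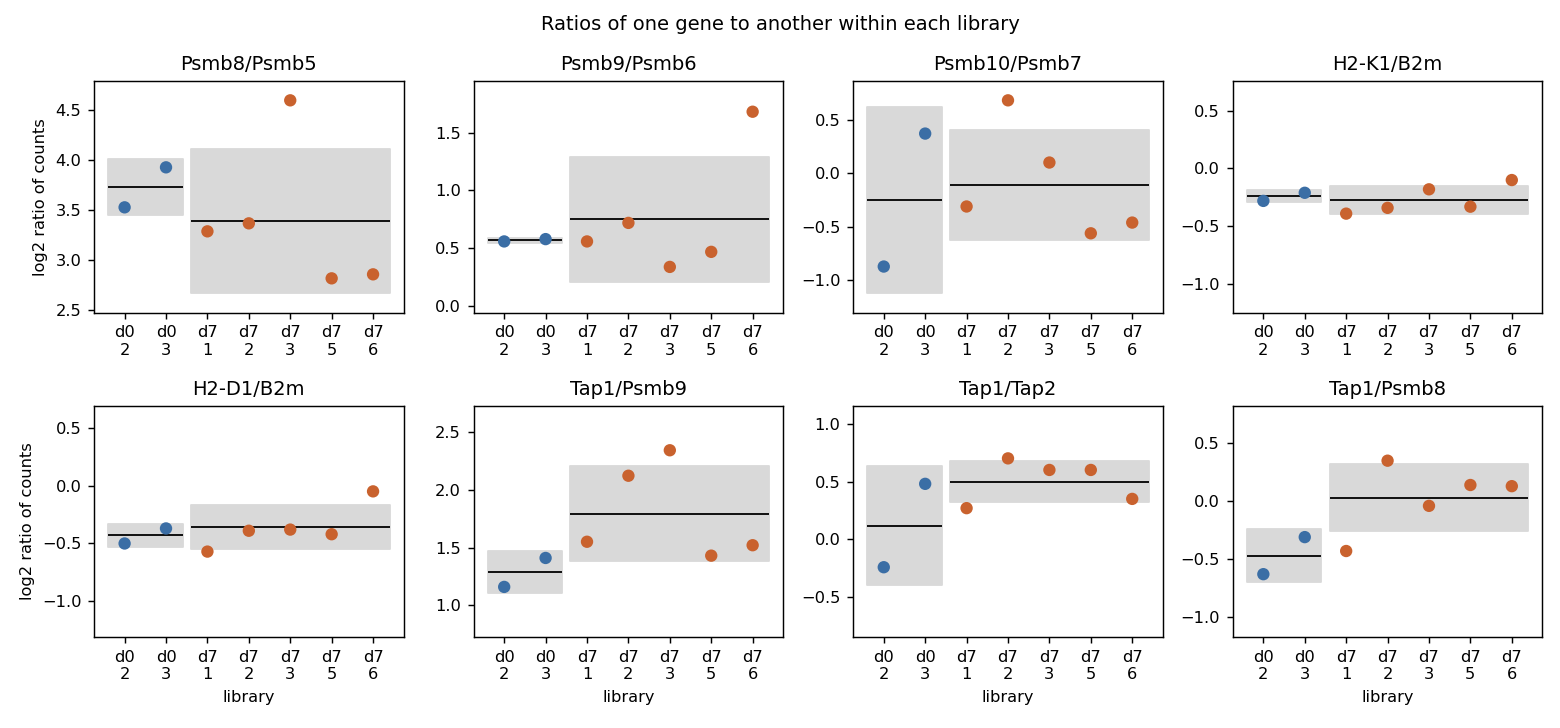
Log2 ratio of the counts of 2 genes in each library (points; black line, mean of the day; grey band, mean ± SD), for 5 planned ratios and 3 of Tap1 chosen after the levels were seen. The days overlap in every panel but that of Tap1 to Psmb9, where the day 7 points lie from 1.43 to 2.34 above day 0 points of 1.16 and 1.41.

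Activators and assembly factors of the proteasome gave 0 called genes of 10, with a median log2 change of 0.13. Of these 10 genes, 2 were higher at an unadjusted p under 0.05, against 6.29% of all genes. Psme1 and Psme2 encode the interferon-induced PA28 cap that opens the proteasome. Psme1 had 345.9 ± 1.54 and 367.9 ± 41.3 CPM and Psme2 140.4 ± 1.36 and 162.4 ± 37.8 CPM (SD), with log2 changes of 0.09 ± 0.14 and 0.21 ± 0.22 (SE, edgeR adjusted p = 0.974 and 0.874). The estimate for Psme2 was 0.39 without day 7 libraries 5 and 6. Counts of Psme2 and its near copy Psme2b (86.0 and 88.6 CPM) may share reads. Pomp, the assembly chaperone that works with LMP7, had 95.8 ± 14.6 and 108.4 ± 25.9 CPM (SD).

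Nlrc5, the transactivator of class I genes, did not pass the test. It had 352.0 and 340.5 CPM on day 0 and 292.0, 410.0, 385.7, 413.9 and 393.9 CPM on day 7. The 4 later libraries in this list were above both day 0 libraries, and library 1 was below them. The log2 change was 0.13 ± 0.15 (SE, interval −0.17 to 0.44, edgeR adjusted p = 0.905), and 0.05 without day 7 libraries 5 and 6. Per kilobase it was the lowest of the members on both days, at 45.7 and 50.02 CPM. Of 19 regulators of class I genes none was called, and the median log2 change was 0.16. At an unadjusted p under 0.05, 2 of the 19 were higher, against 6.29% of all genes. Irf1, an interferon-induced transcription factor, had 391.8 and 259.4 CPM on day 0 and between 269.8 and 307.2 CPM on day 7 (log2 change −0.18 ± 0.16, SE, edgeR adjusted p = 0.807), and its estimate turned to 0.16 when day 0 library 2 was left out. Rfx5, a subunit of the X box complex, had 50.1 ± 3.38 and 41.5 ± 6.9 CPM (SD). Ciita, the class II counterpart of Nlrc5, was low, at 1.82 ± 0.658 and 8.13 ± 2.58 CPM (SD). Its days did not overlap, and its log2 change of 2.15 ± 1.58 (SE) had an edgeR adjusted p of 0.687.

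Most estimates in the list of interferon input genes were negative, whereas 13 of the 19 regulators above had positive ones. Among 8 genes for interferons, their receptors and kinases, 7 estimates were negative and 1 positive. Of all 12929 genes tested, 6064 had negative estimates. The median log2 change of the 8 genes was −0.10, and none of them was called. At an unadjusted p under 0.05, 2 of the 8 were lower, where 3.78% of all genes were. Ifng, interferon gamma itself, had 483.2 and 335.6 CPM on day 0 and 125.1, 192.1, 133.2, 264.3 and 267.3 CPM on day 7. All day 7 libraries were below day 0, with libraries 5 and 6 nearest to it. The log2 change was −1.06 ± 0.33 (SE, edgeR adjusted p = 0.276), and without libraries 5 and 6 it was −1.46 with an adjusted p of 0.000369. Of 18 other settings 4 called Ifng and 14 did not. Those that called it included edgeR without the filter on low counts (adjusted p = 8.38e-07) and limma-voom with sample weights (adjusted p = 0.0413). Ifngr1, the ligand-binding receptor chain, had 525.8 ± 74.9 and 505.6 ± 55.1 CPM (SD). Jak1, the kinase bound to it, picked after its values were seen, had 1206 and 1352 CPM on day 0 and 990.3 to 1080 CPM on day 7, without overlap (log2 change −0.30 ± 0.10, SE, edgeR adjusted p = 0.186, DESeq2 adjusted p = 0.0115).

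Non-classical class I genes, whose products present special peptides or bind innate receptors, were represented by 14 tested genes of 28 listed. None was called, and the median log2 change of 0.12 was that of the members. At an unadjusted p under 0.05, 1 was higher, against 6.29% of all genes. H2-T23 encodes Qa-1, the ligand of the NKG2A and CD94 receptor, and had 280.0 and 298.7 CPM on day 0 and 331.4, 356.3, 320.5, 358.2 and 329.6 CPM on day 7. Its days did not overlap, and the log2 change was 0.23 ± 0.14 (SE, edgeR adjusted p = 0.627). H2-T22, a ligand of some gamma delta T cell receptors, picked after its values were seen, had 227.1 and 218.0 CPM on day 0 and 268.6 to 304.3 CPM on day 7, again without overlap (log2 change 0.37 ± 0.15, SE, edgeR adjusted p = 0.335, DESeq2 adjusted p = 0.0345). H2-Q4 had 541.0 ± 71.1 and 539.6 ± 65.4 CPM, H2-Q7, which encodes Qa-2, 48.7 ± 9.56 and 39.6 ± 8.59 CPM, and H2-M3, which presents formylated peptides, 50.5 ± 20.1 and 66.7 ± 19.5 CPM (SD). Coding sequences of H2-T23 and the classical heavy chains were 83.8% (H2-K1) and 81.9% (H2-D1) identical.

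Among receptors for class I molecules lay the only called gene of all 88 tested pathway genes outside the members, in a fit that called 1.54% of all genes. Klrc1, which encodes NKG2A, the inhibitory receptor for Qa-1, fell from 375.3 and 361.3 CPM in the day 0 libraries to 192.0, 171.6, 222.4, 204.5 and 161.1 CPM in the day 7 libraries. The groups were far apart, with a log2 change of −0.95 ± 0.15 (SE, edgeR adjusted p = 0.000679). With the column digit as a replicate block the log2 change was −0.91, and Klrc1 was not called (edgeR adjusted p = 0.0659). Klrd1, which encodes its partner CD94, had 171.7 ± 21.9 and 128.3 ± 22.2 CPM (SD) and overlapped between days (log2 change −0.42 ± 0.20, SE, edgeR adjusted p = 0.482). Beside this call, 7 markers of NK cells summed to 662.4 and 731.0 CPM on day 0 and to 232.1 to 472.5 CPM on day 7, but this sum was almost all Klrb1c, which encodes NK1.1, with 632.4 and 713.7 CPM on day 0 and 159.9 to 404.0 CPM on day 7. The other markers of that list did not follow it. Ncr1, Fcer1g, Tyrobp and Eomes had positive log2 estimates (1.55, 1.46, 0.90 and 1.86), and Klra8 and Klra4 were at 0 in both day 0 libraries. The part of NK cells in the Klrc1 level was not tested. Of the 13 receptor genes tested Klrc1 was the 1 called. Over all 88 pathway genes 12 were higher and 4 lower at an unadjusted p under 0.05, with a median log2 change of 0.13. Of all genes tested 6.29% were higher and 3.78% lower at that level. DESeq2 called 10 of the 88, where it called 6.39% of all genes. Limma-voom with sample weights called 2 of the 88, where it called 1.4% of all genes.

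The members did not move as a block from library to library. Across the 7 libraries 21 of the 45 pairs of members had a positive correlation, and the median r was −0.03. Tap1, Tapbp and Psmb10 ran most alike (r = 0.71 for Tap1 and Tapbp, 0.70 for Tap1 and Psmb10, and 0.68 for Tapbp and Psmb10), and Tap1 ran against B2m (−0.72) and H2-K1 (−0.70), as Tapbp did against H2-D1 (−0.72). These values describe 7 libraries of 2 groups that share their depth scaling, and no test was made. The mean standardised profile of the members was highest in day 7 library 3 (0.49), and in the other libraries it lay between −0.20 and 0.06. The 8 genes most like that profile, out of 7089 with a mean of at least 20 CPM, were Etfa (r = 0.956), Panx1 (0.924), Fbxo5 (0.915), Usp4 (0.91), Ppa1 (0.909), Pip4k2c (0.909), Psma2 (0.906) and Cenpc1 (0.896). High values of r can arise by chance when 7089 genes are ranked over 7 libraries, and this list was not tested. Each of the 8 genes was highest in day 7 library 3, as was the profile they were ranked by. Psma2, a subunit of the proteasome's outer ring, reached 247.1 CPM there, against 151.8 to 187.6 CPM in the other libraries.

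Class I genes are expressed by every cell type a sort could carry along, so marker levels stand beside these results. Markers were summed over 14 macrophage and dendritic cell genes. They stood at 40.1 and 23.6 CPM on day 0 and at 82.1 to 124.6 CPM in day 7 libraries 1, 2 and 3. Day 7 libraries 5 and 6 had 575.1 and 280.5 CPM. Of the 14 genes only Csf1r and C1qc were at 0 in both day 0 libraries, and C1qc was above 0 only in day 7 library 5, at 3.80 CPM. Xcr1 and Zbtb46 had negative log2 estimates (−0.66 and −0.36), with 10.48 and 4.99 CPM in day 0 library 2. The other tested markers of this list had positive estimates. B cell markers summed to 0.0416 and 11.6 CPM on day 0 and 12.7 to 42.8 CPM on day 7, with Ms4a1 at 0 on day 0. Hepatocyte markers summed to at most 53.1 CPM, stromal markers to at most 17.8 CPM and neutrophil markers to at most 9.09 CPM in any library. Endothelial markers summed to 66.0 to 170.3 CPM, and most of this was Pecam1. Pecam1 had 61.6 and 105.0 CPM on day 0 and 69.7 to 170.3 CPM on day 7. Cdh5, Kdr, Stab2 and Tek were at 0 on day 0, whereas Clec4g was above 0 only in day 0 library 2, at 4.325 CPM. The 10 members together summed to 10460 and 10360 CPM on day 0 and to 9516 to 10320 CPM on day 7. Most of this sum came from B2m, H2-K1 and H2-D1, so it says little about the other members. The part of other cells in the members' levels was not tested. Libraries 5 and 6 had the highest sums of macrophage, dendritic cell and CD8 markers, but those of day 7 libraries 1, 2 and 3 were also above day 0. In sorted bulk cells fewer cells of a type and less RNA per cell cannot be told apart.

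**Figure D5:**
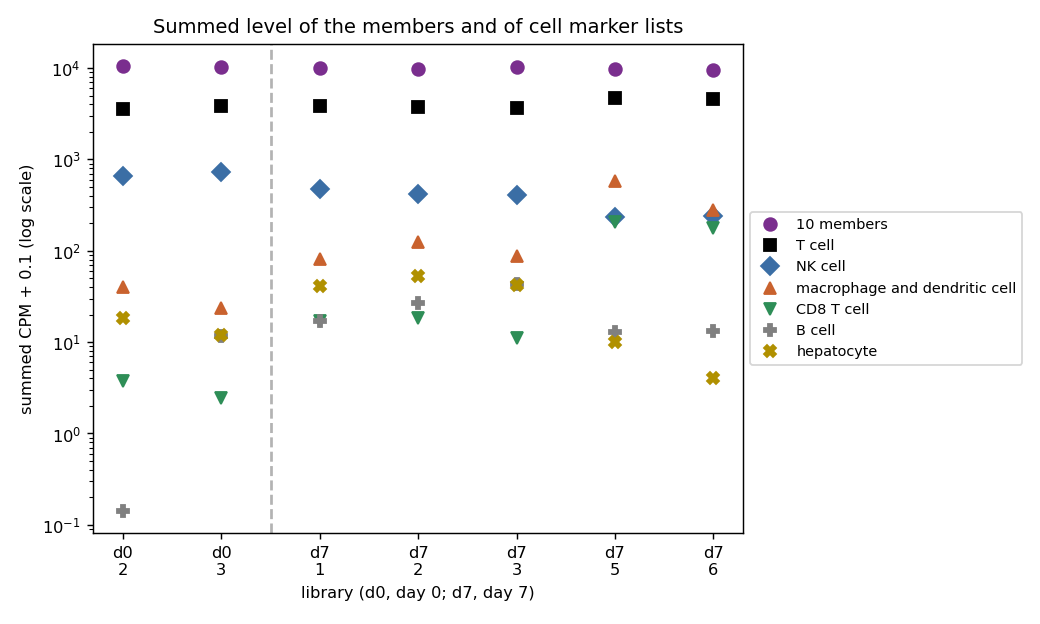
Summed CPM plus 0.1 on a log axis in each library (d0, day 0; d7, day 7; dashed line between the days) for the 10 members and 6 lists of cell markers. The sum of the members, which is mostly B2m, H2-K1 and H2-D1, stays between 9516 and 10460 CPM in all libraries. The macrophage and dendritic cell markers reach 575.1 CPM and the CD8 markers 204.5 CPM in day 7 library 5.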

How the data were processed

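Per the submitters' processing notes CASAVA 1.8, HISAT2 2.0.5 and featureCounts 1.5.0-p3 were used. Genome build, annotation and strand setting were not given in the sources used here. The authors deposited raw counts, 1 whole number per gene and library. Between 72.5% and 78.1% of counts from 2 to 200 were even, so low counts may stand for fewer fragments. Columns name the day only.

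From these counts, edgeR 4.0.16 in R 4.3.3 (filterByExpr, TMM, robust quasi-likelihood test, Benjamini-Hochberg over 12929 genes, threshold 0.05) compared day 7 with day 0. The procedure was tested on simulated data. Standard errors are the log2 change over the root of F. Ratios are log2 of counts + 0.5, compared by exact two-sided permutation. Alternatives included DESeq2 1.42.0 and limma 3.58.1. Intervals cover the spread between libraries.

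The members and lists were chosen with earlier results of these data known. The naming rule took the members, a panel of 22 partner genes (1 not reported here), called list genes, the 8 genes most alike and cell markers. H2-T22, Jak1, Blmh, Psme4, Klrd1 and Psme2b were picked after their values were seen. Sequences are from RefSeq, GRCm38.p6, and transcript lengths from GENCODE M21.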

Additional observations from a re-analysis of the deposited data

Results flagged for a closer look

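Among 30 groups of 5 day 7 values checked for a value far from the rest, 3 were found, where chance flags about 1 in 20. Nlrc5 stood at 292.0 CPM in day 7 library 1, with the nearest other day 7 library at 385.7 CPM, a gap of 0.769 of the group's range. Psme4, which encodes the proteasome activator PA200, stood at 82.98 CPM in the same library, with the nearest at 125.4 CPM and a gap of 0.818 of the range. The log2 ratio of Psmb9 to Psmb6 was 1.684 in day 7 library 6, with the nearest at 0.72 and a gap of 0.716 of the range. In that library Psmb6 had 38.0 CPM, the lowest of all libraries, and Psmb9 122.1 CPM.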

How the results depend on the processing

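Of 180 values of the 10 members under 18 other settings, 173 kept direction and side of the threshold, 5 (all Tap1) passed it and 2 (both Psmb9) changed sign. Tap1 made 1 member called with total counts alone (adjusted p = 0.0411), without the filter on low counts (0.0158), with DESeq2 (0.00112), with limma-voom and sample weights (0.0482) and without day 7 library 1 (0.0408). Over all genes the count was 375 without the filter (249 higher and 126 lower, 3 pathway genes) and 826 with DESeq2 (634 and 192, 10 pathway genes). Limma-voom gave 53 higher and 94 lower, with sample weights 67 and 114 (2 pathway genes), against 138 and 61. Without day 7 libraries 5 and 6, a setting chosen after seeing the data, 107 were lower and 3 pathway genes were called. Psmb9 changed by −0.12, and the ratio differences were 0.02 (Psmb8 to Psmb5), −0.03 (Psmb9 to Psmb6) and −0.01 (H2-D1 to B2m). Leaving out single libraries gave 127 to 189 called genes (87 to 153 higher, 30 to 59 lower), 0 to 1 members and 1 to 3 pathway genes. Ratio differences then ran from −0.65 to −0.14 (Psmb8 to Psmb5), −0.05 to 0.29 (Psmb9 to Psmb6), −0.48 to 0.76 (Psmb10 to Psmb7), −0.06 to 0.01 (H2-K1 to B2m) and −0.01 to 0.14 (H2-D1 to B2m). Psmb10 to Psmb7 turned to −0.48 on leaving out day 0 library 2 and to −0.05 on leaving out day 7 library 2. The log2 changes of Irf1 ran from −0.43 to 0.16, of Psmb7 from −0.11 to 0.57 and of Psmb6 from −0.21 to 0.10 (0.03 without day 7 library 2). The causes were not tested.

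Whether the column digits shared by the days (2 and 3) pair the libraries is not known. Deviations from the day means correlated at −0.014 and −0.001. With 2 day 0 libraries these deviations mirror each other, so the check cannot exclude pairing. With the digit as a replicate block 82 genes were called (40 higher), 2 of them pathway genes and none a member. Psmb9 was −0.23, Psmb5 −0.16, and the ratio differences of Psmb8 to Psmb5 and Psmb9 to Psmb6 were 0.25 and −0.04. Klrc1 had a log2 change of −0.91 with an adjusted p of 0.0659, and Ifng one of 0.00817 in this fit.

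The 2 day 0 libraries limit the precision: the Tapbp estimate of 0.34 had an SE of 0.15. Depth was least for Psmb10, with 3702 counts over day 0.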
